A study of Arabidopsis thaliana with 18 samples.

Results

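The submergence response of ein3eil1 leaves was set against that of wild-type leaves of Arabidopsis thaliana, gene by gene. The 12 libraries used, of 18 in the series, came from leaves of 4-week-old plants: 3 of ein3eil1 submerged for 6 hours, 3 of ein3eil1 kept in air, 3 of wild type submerged for 6 hours and 3 of wild type kept in air. All 12 titles also carry the word mock, which the labels do not explain. The ein3eil1 line is a double mutant of EIN3 and EIL1; its alleles, and the plants behind each replicate, are not given in the labels, so p-values measure only the spread between these libraries. Of 32833 genes in the deposited table, 19806 reached 1 TPM in at least 3 of the 12 libraries and were tested. TPM (a transcript share scaled for gene length) sums to about the same total in each library. A response here is the mean log2(TPM + 1) of submerged leaves minus that of leaves in air, and a difference of response is the ein3eil1 response minus the wild-type response, so that a negative difference means a weaker rise or a deeper fall in ein3eil1. Fold changes on this scale understate those of genes with low values, and where a gene is listed at 0 throughout a group the fitted difference depends on the added 1 TPM and measures no fold. A difference was called at a Benjamini-Hochberg adjusted p under 0.05 over all 19806 genes in limma, a linear model with moderated variances, and every adjusted p below comes from that fit.

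Ethylene is a gas that plants make from methionine through ACC synthases and ACC oxidases, and it collects in organs under water because it escapes slowly there. Its receptors and the kinase CTR1 hold the pathway off; when ethylene binds, EIN2 is released and the transcription factors EIN3 and EIL1, which the F-box proteins EBF1 and EBF2 otherwise mark for degradation, build up and switch on ethylene-responsive genes. Low oxygen acts through a separate branch, in which group VII ERF factors escape the N-degron pathway and induce fermentation and other hypoxia genes. The series title concerns PHYA, the gene of the far-red light receptor phytochrome A, and the escape of plants from submergence.

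The mutated genes and PHYA were read first. EIN3 (AT3G20770) measured 42.5, 49.4 and 41.6 TPM in submerged ein3eil1 leaves and 26.9, 27.3 and 28.3 TPM in ein3eil1 leaves in air, against 57, 56.8 and 49.6 TPM and 62, 55.9 and 61.3 TPM in wild type. EIL1 (AT2G27050) measured 11.6, 6.9 and 12.5 TPM submerged and 17, 16.5 and 16.1 TPM in air in ein3eil1, against 66.4, 65.3 and 69.5 TPM and 38.2, 41 and 43.8 TPM in wild type. Both transcripts were thus present but lower in every ein3eil1 library than in any wild-type library of the same condition: the log2 difference from wild type in air was -1.09 (adjusted p = 4.09e-05) for EIN3 and -1.26 (adjusted p = 0.000295) for EIL1, and under submergence it was -0.29 (adjusted p = 0.0203) and -2.63 (adjusted p = 1.13e-07). TPM over a whole gene does not show where a transcript is disrupted. EIL1 rose in submerged wild-type leaves and fell in submerged ein3eil1 leaves, a difference of response of -1.37 (SE 0.23, adjusted p = 0.000657). EIN3 rose in ein3eil1, by 0.67 on the log2 scale, and its wild-type response of -0.13 was not called, a difference of 0.80 (SE 0.13, adjusted p = 0.000625); with all 18 libraries in the fit this call was lost (adjusted p = 0.144). Its paralog EIL3 had a difference of 0.47 (adjusted p = 0.0226), and the family members EIL2, AT5G10120 and AT5G65100 did not reach the minimum for testing.

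PHYA (AT1G09570) measured 15.2, 20.1 and 13.6 TPM in submerged ein3eil1 leaves, against 20.6, 16.3 and 15.7 TPM in ein3eil1 leaves in air. Wild-type PHYA measured 22, 23.8 and 23 TPM under submergence, against 13.2, 11.1 and 10.8 TPM in air. Its log2 response was -0.11 in ein3eil1 and 0.92 in wild type, a difference of -1.02 (SE 0.21, adjusted p = 0.00214). The submerged and air libraries overlapped in ein3eil1 and did not overlap in wild type. PHYA stood higher in ein3eil1 than in wild type in air, by 0.54 (adjusted p = 0.00982) on the log2 scale, and lower under submergence, with a log2 difference of -0.49 (adjusted p = 0.0132). Over all tested genes the median was higher in ein3eil1 in both conditions, by 0.37 in air and 0.20 under submergence. In air 9243 of the 19806 genes were called higher in ein3eil1 and 1006 lower.

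All 12 libraries correlated with their own group at r of 0.963 to 0.986 (Pearson, log2 values of the tested genes) and less with every other group. They listed 21309 to 23189 genes above 0, and the table gives no read depth. The 3 submerged wild-type libraries lay closer together than the replicates of the other groups: among genes averaging at least 300 TPM, the median coefficient of variation was 16.3% in submerged ein3eil1, 9.93% in ein3eil1 in air, 2.87% in submerged wild type and 10.3% in wild type in air. Counts were therefore repeated with those 3 libraries averaged to 1, an alternative chosen after seeing the data. Submerged ein3eil1 replicate 2 was often the extreme library of its group, and ein3eil1 replicate 1 in air held raised hypoxia transcripts, as given below. Small nuclear RNAs took 0.483 ± 0.05% of TPM in submerged ein3eil1 leaves and 0.0311 ± 0.00560% in ein3eil1 leaves in air, against 0.545 ± 0.0420% and 0.0383 ± 0.0148% in wild type (SD, n = 3 each); their part in any result was not tested. In these bulk samples, fewer cells of a type and less RNA per cell cannot be told apart.

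The difference of response was called in 8278 genes. It was higher in ein3eil1 in 3059 genes, 15.4% of those tested, and lower in 5219 genes, 26.4%. With submerged wild type averaged to 1 library, 1941 and 2675 genes were called. A difference of at least 1 on the log2 scale was seen in 1983 of the genes called higher and in 2078 of those called lower. The median difference over all tested genes was -0.20, from a median response of -0.49 in ein3eil1 and -0.33 in wild type. Median centring of the libraries moved those median responses to 0.03 and 0.13 and the share of calls that were higher from 37.0% to 42.4%, so the responses of single genes and lists are best read against these medians.

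Called genes were sorted by which line responded. A response was lost, meaning called in wild type and not in ein3eil1, in 1680 genes (8.48% of those tested), of which 1070 had a lower and 610 a higher difference. Among the 1070, the median log2 response was -0.01 in ein3eil1 and 0.87 in wild type. A response was reduced, with the same sign and a smaller size in ein3eil1, in 1274 genes (6.43%). It was reversed, called in both lines with opposite signs, in 1050 genes (5.3%): the 500 of these that rose in ein3eil1 had a median log2 response of 0.99 there and -0.80 in wild type. It was gained, called in ein3eil1 alone, in 2381 genes (12%), where 1527 had a lower and 854 a higher difference. It was enhanced, with the same sign and a larger size in ein3eil1, in 1828 genes (9.23%), of which 1364 fell further and 464 rose further. The other 65 called genes had neither response called.

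A difference of response is also the submerged ein3eil1-minus-wild-type level minus the same in air, from the same libraries. The levels below therefore follow in part from the sorting and are given as a description. In all tested genes the median log2 level in air was 0.37 higher in ein3eil1 than in wild type, and under submergence it was 0.20 higher. The 1527 gained responses with a lower difference had a median of 0.51 higher in ein3eil1 in air and 0.34 lower under submergence, and the 1364 genes that fell further had medians of 0.57 higher in air and 0.20 lower submerged. The 1070 lost responses with a lower difference stood 0.25 higher in air and 0.68 lower submerged.

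**Figure D1:**
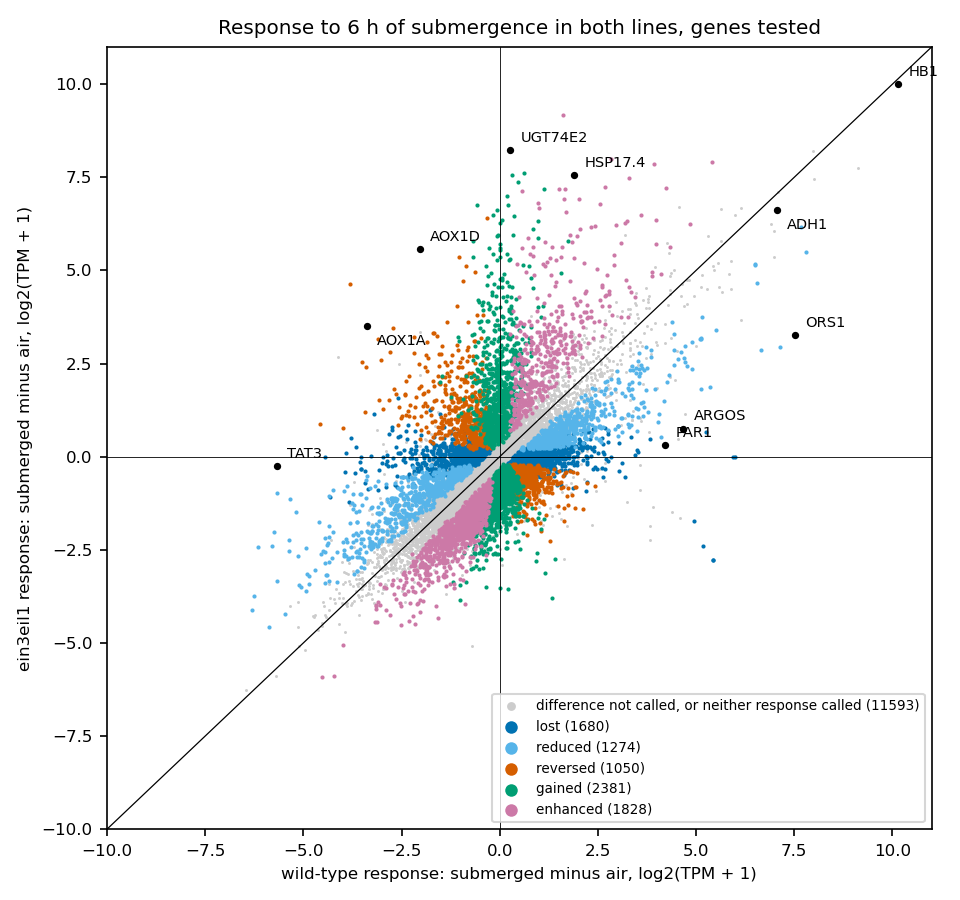
Log2 response to submergence in ein3eil1 (vertical axis) against that in wild type (horizontal axis), in log2(TPM + 1), 1 point per tested gene, coloured by class with the number of genes. Lost responses lie along the horizontal axis, gained ones along the vertical axis, and the 1050 reversed ones in the upper left and lower right parts of the plot.

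Among ethylene signalling genes upstream of EIN3, 6 rose in wild type and had a smaller, absent or opposite response in ein3eil1. Of 14 receptor and signalling genes, all tested, 6 had a called lower difference and 1 a higher one (42.9% and 7.14%, beside 26.4% and 15.4% of all genes). Their median log2 response was -0.31 in ein3eil1 and 0.41 in wild type. In wild type 7 rose and 5 fell, and in ein3eil1 3 rose and 7 fell. These 6 were the receptor gene ERS1, the receptor regulator RTE1, the kinase gene CTR1, the F-box gene EBF2, and ETP1 and ETP2, whose F-box products target EIN2.

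EBF2 measured 8.67, 4.57 and 12.3 TPM in submerged ein3eil1 leaves, against 8.09, 8.26 and 10.1 TPM in air. Wild-type EBF2 measured 98.8, 109 and 102 TPM under submergence, against 29.9, 25.8 and 21.3 TPM in air. The EBF2 difference of response was -2.11 on the log2 scale (SE 0.35, adjusted p = 0.000729). In wild type the submerged libraries lay far above the air libraries, whereas in ein3eil1 they overlapped, and the highest ein3eil1 library of either condition lay below every wild-type library.

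ERS1 measured 15, 11.1 and 15.1 TPM in submerged ein3eil1 leaves, against 24.2, 22.9 and 21.2 TPM in air. Wild-type ERS1 measured 70.2, 68.1 and 69.1 TPM under submergence, against 29.7, 25.6 and 24.7 TPM in air. The ERS1 difference of response was -2.04 on the log2 scale (SE 0.17, adjusted p = 4.97e-06). Submerged leaves were above air in all wild-type libraries and below air in all ein3eil1 libraries, so the response of this receptor was called in opposite directions.

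RTE1 measured 8.45, 5.71 and 6.64 TPM in submerged ein3eil1 leaves, against 10.2, 10.8 and 12.1 TPM in air. Wild-type RTE1 measured 28, 27.6 and 24.7 TPM under submergence, against 11.8, 9.87 and 10.2 TPM in air. The RTE1 difference of response was -1.88 on the log2 scale (SE 0.19, adjusted p = 1.97e-05). The 2 lines overlapped in air and were apart under submergence.

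CTR1 measured 36, 37.8 and 38.7 TPM in submerged ein3eil1 leaves, against 35.3, 33 and 26.7 TPM in air. Wild-type CTR1 measured 106, 109 and 105 TPM under submergence, against 29.1, 27.9 and 25.5 TPM in air. The CTR1 difference of response was -1.67 on the log2 scale (SE 0.15, adjusted p = 7.46e-06). Both rises were called, the lines overlapped in air, and every submerged wild-type library lay far above every ein3eil1 library. ETP2 and ETP1 had smaller differences, of -0.84 (adjusted p = 0.00303) and -0.60 (adjusted p = 0.00535).

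The receptor genes did not move as a block. EIN4, another receptor, had a higher difference: EIN4 measured 15.3, 17.8 and 11.8 TPM in submerged ein3eil1 leaves, against 9.68, 9.51 and 10.5 TPM in air. Wild-type EIN4 measured 3.88, 3.96 and 3.48 TPM under submergence, against 6.26, 5.63 and 5.39 TPM in air. The EIN4 difference of response was 1.03 on the log2 scale (SE 0.20, adjusted p = 0.00142). It rose in ein3eil1 and fell in wild type, with no overlap between conditions in either line. ETR2 rose in both lines, by 2.93 in ein3eil1 and 3.32 in wild type, and its difference of -0.40 (95% interval -1.19 to 0.40, adjusted p = 0.409) was not called. ETR1, with a difference of 0.31 (95% interval -0.02 to 0.64, adjusted p = 0.12), and EIN2, with -0.21 (95% interval -0.80 to 0.38, adjusted p = 0.554), were not called either, nor was EBF1 at -0.41 (95% interval -0.88 to 0.06, adjusted p = 0.151).

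Ethylene synthesis genes were called higher at the ACC synthase step. Of 14 listed, 10 were tested, of which 4, all ACC synthase genes, had a called higher difference. ACS2 measured 10.2, 19.8 and 16 TPM in submerged ein3eil1 leaves, against 2.11, 2.83 and 3.65 TPM in air, and 0.94, 0.57 and 0.51 TPM in submerged wild-type leaves, against 1.07, 1.63 and 1.04 TPM in air. The ACS2 rise was called in ein3eil1 alone, with a difference of 2.48 (SE 0.33, adjusted p = 0.000137). ACS7 and ACS8 rose in both lines and further in ein3eil1: the log2 response of ACS7 was 4.39 in ein3eil1 and 2.18 in wild type, a difference of 2.22 (adjusted p = 0.00163), and that of ACS8 was 3.57 in ein3eil1 and 1.14 in wild type, a difference of 2.43 (adjusted p = 0.000906). ACS4 had a difference of 1.73 (adjusted p = 0.0093).

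The ACC oxidase gene ACO1 rose in both lines, with a difference of -1.09 (95% interval -3.30 to 1.13, adjusted p = 0.409) that was not called; in ein3eil1 leaves in air it measured 12.6, 1.3 and 0.58 TPM, the first value being replicate 1.

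Ethylene-response genes were mixed. Of 29 listed, 28 were tested, and 9 had a called lower and 5 a called higher difference (32.1% and 17.9%). The shares over all genes were close to these, at 26.4% and 15.4%. With submerged wild type averaged, 7 and 3 were called. The 9 lower ones were EBF2 and RTE1 above, ORS1, ARGOS, NAP, NAC6, DREB1A, ERF5 and HLS1. ARGOS acts in organ growth and lowers ethylene sensitivity in Arabidopsis, ORS1 (AT2G41230) encodes an organ-size protein related to ARGOS, and NAP and NAC6 encode NAC factors that promote leaf senescence.

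ARGOS measured 2.96, 0.44 and 2.46 TPM in submerged ein3eil1 leaves, against 0.69, 0.3 and 0.88 TPM in air. Wild-type ARGOS measured 58.6, 58.1 and 58.8 TPM under submergence, against 1.16, 1.94 and 1.01 TPM in air. The ARGOS difference of response was -3.92 on the log2 scale (SE 0.45, adjusted p = 5.89e-05). All submerged wild-type libraries lay close together and far above the highest ein3eil1 library, and the small ein3eil1 rise was still called.

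ORS1 measured 36.9, 2.25 and 20.6 TPM in submerged ein3eil1 leaves, against 0.48, 0 and 1.03 TPM in air. Wild-type ORS1 measured 341, 285 and 262 TPM under submergence, against 1.58, 0.34 and 0.22 TPM in air. The ORS1 difference of response was -4.25 on the log2 scale (SE 1.08, adjusted p = 0.0115). Submergence raised ORS1 in both lines, and the 3 submerged ein3eil1 libraries, which ranged widely, all lay below the 3 of wild type. Its call was lost with a pseudocount of 0.1 TPM (adjusted p = 0.0852) and with submerged wild type averaged (adjusted p = 0.0689).

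NAP fell in ein3eil1 and rose in wild type, by log2 -1.47 and 0.60, a difference of -2.07 (adjusted p = 0.000164). NAC6, also called ORE1, kept a low level throughout ein3eil1: it measured 4.02, 2.55 and 7.96 TPM submerged and 4.42, 2.92 and 1.84 TPM in air, against 69.5, 63.7 and 62 TPM and 14.4, 11.3 and 11.6 TPM in wild type, a difference of -1.84 (adjusted p = 0.0054). ERF5 had a difference of -1.45 (adjusted p = 0.000914) and HLS1, the gene of the apical hook, one of -0.89 (adjusted p = 0.0196). Not all known ethylene-response genes followed: ERF1, an early EIN3 target, had 0.17 (95% interval -0.43 to 0.77, adjusted p = 0.658), the defensin gene PDF1.2 had 0.05 (95% interval -3.85 to 3.95, adjusted p = 0.985), PR4 had 0.32 (95% interval -0.81 to 1.45, adjusted p = 0.646), and none of the 3 was called. PDF1.2 and PR4 were, however, lower in every ein3eil1 library than in any wild-type library of the same condition. ERF2, ARL, RAV1 and RAV2 had higher differences, of 0.91, 0.96, 1.23 and 1.71.

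EDS16, the isochorismate synthase gene of salicylic acid synthesis and one that EIN3 represses in Arabidopsis, was the fifth higher member of the list. EDS16 measured 273, 399.6 and 251 TPM in submerged ein3eil1 leaves, against 43.3, 55 and 70 TPM in air. Wild-type EDS16 measured 9.6, 8.56 and 8.34 TPM under submergence, against 24.2, 30.1 and 29.1 TPM in air. The EDS16 difference of response was 3.98 on the log2 scale (SE 0.27, adjusted p = 1.11e-06). It rose in ein3eil1 and fell in wild type, and the 2 lines were apart in both conditions.

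**Figure D2:**
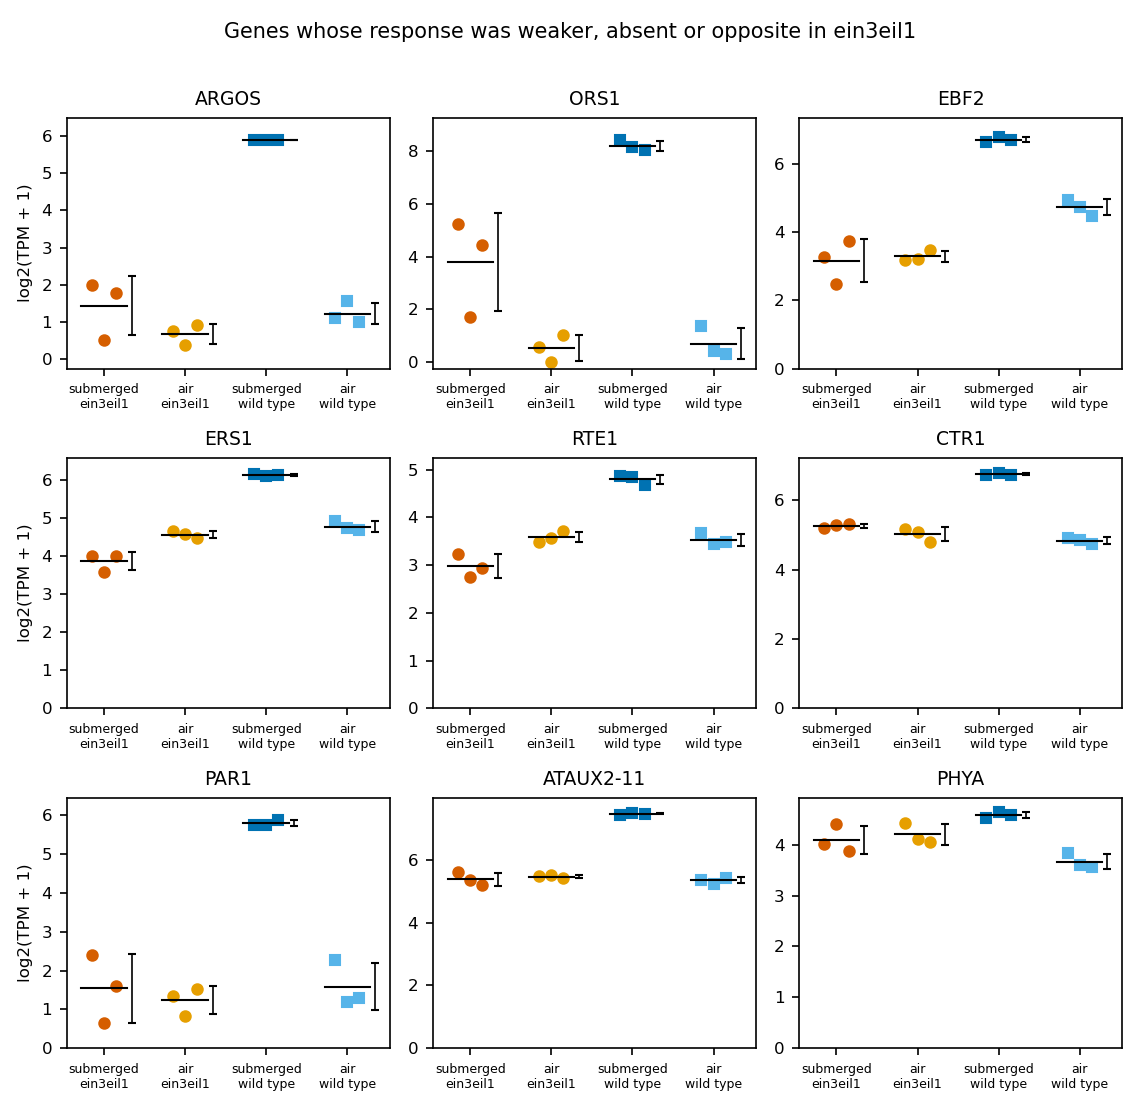
Genes with a lower difference of response: log2(TPM + 1) in 3 libraries (points) per group, with the mean (line) and SD (error bar), ein3eil1 left of wild type and submerged left of air in each panel. ARGOS, EBF2 and PAR1 stood far above the other 3 groups in submerged wild type, and PHYA, ERS1, RTE1, CTR1 and ATAUX2-11 were highest there too.

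The hypoxia response was present in both lines and about equal in its middle. Of 49 core hypoxia genes 48 were tested, and 46 rose in ein3eil1 and 39 in wild type; 39 rose in both. The median log2 response was 3.19 in ein3eil1 and 3.17 in wild type, and the median difference was 0.00, a sign that turned with the pseudocount and with libraries left out. Over all tested genes the median difference was -0.20. Among the core hypoxia genes a difference was called higher in 16 and lower in 5 (33.3% and 10.4%, beside 15.4% and 26.4% of all genes). Of the 39 that rose in both, 25 had no called difference. With submerged wild type averaged, 10 and 3 were called.

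Several well known markers were not called, some with wide intervals. ADH1, the alcohol dehydrogenase of ethanol fermentation, measured 1077, 1381 and 873 TPM in submerged ein3eil1 leaves, against 22.9, 9.92 and 4.26 TPM in air. Wild-type ADH1 measured 412, 414 and 412 TPM under submergence, against 3.1, 1.42 and 2.01 TPM in air. Submerged leaves exceeded air by far in both lines, and ein3eil1 exceeded wild type in every library of either condition. The ADH1 difference of response was -0.44 (95% interval -1.84 to 0.96, adjusted p = 0.607), and it changed sign, to 0.11, without ein3eil1 replicate 1 in air. HB1, the hypoxia-induced haemoglobin, rose steeply in both lines, by log2 10.14 in wild type, with a difference of -0.14 (95% interval -1.12 to 0.85, adjusted p = 0.829). SUS1, a sucrose synthase gene, had a difference of -0.20 (95% interval -0.77 to 0.37, adjusted p = 0.562), and none of these 3 was called. PDC2, a pyruvate decarboxylase gene, was called: it fell in wild type with no called ein3eil1 response, a difference of 1.48 (adjusted p = 0.0204).

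That air library of ein3eil1 held higher levels of some hypoxia transcripts than the other 2. FTM1 measured 39.1, 0.34 and 2.78 TPM in ein3eil1 leaves in air, AT2G17850 measured 17, 0 and 0 TPM, and the first value is replicate 1 in both. Their differences, -1.29 (adjusted p = 0.61) and -1.37 (adjusted p = 0.443), were not called. Without replicate 1 in air, 18 core hypoxia genes were called higher and 6 lower, and the list's median difference was 0.32. Without replicate 2 in air, 15 were called higher and 8 lower with a median of -0.06, and without replicate 3 in air the median was -0.10.

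Among the genes that did differ, NAC102, NIP2;1, ERF71, CML38 and RBOHD rose further in ein3eil1 or rose there and fell in wild type. NAC102, a factor of low-oxygen germination, was called in opposite directions. NAC102 measured 453, 480.2 and 377 TPM in submerged ein3eil1 leaves, against 82.8, 98.1 and 92 TPM in air. Wild-type NAC102 measured 47.7, 50.5 and 47.4 TPM under submergence, against 70.2, 92.1 and 78.4 TPM in air. The NAC102 difference of response was 2.95 on the log2 scale (SE 0.17, adjusted p = 3.44e-07). In ein3eil1 submergence raised it, and in wild type it lowered it.

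NIP2;1 measured 114, 141 and 121 TPM in submerged ein3eil1 leaves, against 0.2, 0.79 and 0.69 TPM in air. Wild-type NIP2;1 measured 23.5, 21.9 and 19.8 TPM under submergence, against 0.33, 0.58 and 0.41 TPM in air. The NIP2;1 difference of response was 2.37 on the log2 scale (SE 0.22, adjusted p = 1.32e-05). This lactic acid channel rose in both lines, and its submerged libraries did not overlap between them. RBOHD, an NADPH oxidase that makes superoxide, had a log2 response of 1.08 in ein3eil1 and -0.89 in wild type, a difference of 1.97 (adjusted p = 0.000129). CML38, a calmodulin-like protein of hypoxia granules, had 4.08 in ein3eil1 and 2.23 in wild type, a difference of 1.85 (adjusted p = 0.00962). The 5 lower members were AT1G19530, the thioredoxin gene ACHT5, AT1G72940, AT3G03270 and the phosphofructokinase gene PFK6, with differences between -2.31 and -1.04.

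Oxygen-sensing genes gave 1 higher and 4 lower calls of 12, with a median log2 response of 1.81 in ein3eil1 and 2.23 in wild type. These calls moved readily: without ein3eil1 replicate 1 in air, wild-type replicate 3 in air, or submerged wild-type replicate 2 or 3, 2 were lower, and with submerged wild type averaged 1 was. Among group VII ERF genes, ERF71 (HRE2) rose much further in ein3eil1, to 426, 216 and 384 TPM against 0.92, 0.09 and 0.24 TPM in air, whereas submerged wild-type leaves measured 47, 53.7 and 48.4 TPM against 0.53, 0.09 and 0 TPM in air. The ERF71 difference was 2.49 (SE 0.38, adjusted p = 0.000432), and a pseudocount of 0.1 TPM ended its call (adjusted p = 0.154). ERF73 (HRE1) rose in both lines, and its difference of 0.11 (95% interval -0.54 to 0.76, adjusted p = 0.792) was not called. RAP2.2 had -0.79 (SE 0.17, adjusted p = 0.00318), a call lost with all 18 libraries in the fit (adjusted p = 0.106), and RAP2.12 had -0.46 (adjusted p = 0.0366). EBP (RAP2.3), named for binding ethylene-response elements, was the largest in level: it measured 232, 144 and 390.1 TPM in submerged ein3eil1 leaves and 36.4, 22.7 and 18.6 TPM in air, against 3273, 3252 and 3213 TPM and 128, 188 and 157 TPM in wild type. It was lower in ein3eil1 in both conditions without overlap, while its difference of response, -1.18 (95% interval -2.20 to -0.16, adjusted p = 0.0621), was not called.

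Genes of the mitochondrial retrograde response, by which dysfunctional mitochondria signal to the nucleus through membrane-bound NAC factors, rose in ein3eil1 and not in wild type. Of 17, all tested, 16 had a called higher difference and none a lower one (94.1%, beside 15.4% of all genes). The median log2 response was 2.87 in ein3eil1 and -0.41 in wild type: 12 rose and 1 fell in ein3eil1, and none rose and 10 fell in wild type. In their summed level, submerged ein3eil1 leaves held 5279 to 6112 TPM and ein3eil1 leaves in air 424 to 465 TPM, against 162 to 177 TPM and 336 to 397 TPM in wild type. With submerged wild type averaged, 15 were called. UGT74E2, GSTU25 and AT5G09570 would not have passed the minimum level without the submerged ein3eil1 libraries.

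AOX1A measured 1051, 967 and 896 TPM in submerged ein3eil1 leaves, against 87, 95.9 and 71.8 TPM in air. Wild-type AOX1A measured 5.68, 4.34 and 4.51 TPM under submergence, against 59, 53.4 and 68 TPM in air. The AOX1A difference of response was 6.90 on the log2 scale (SE 0.19, adjusted p = 8.91e-10). AOX1A encodes the main alternative oxidase, a bypass of the respiratory chain. It moved in opposite directions in the 2 lines, and the air libraries of ein3eil1 lay somewhat above those of wild type.

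AOX1D measured 846, 1263 and 810.1 TPM in submerged ein3eil1 leaves, against 23.1, 21.9 and 13.7 TPM in air. Wild-type AOX1D measured 3.01, 4.1 and 5.1 TPM under submergence, against 30, 14.1 and 17.4 TPM in air. The AOX1D difference of response was 7.61 on the log2 scale (SE 0.41, adjusted p = 4.32e-07). The isoform AOX1D showed the same reversal, with the lines overlapping in air and far apart under submergence.

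UGT74E2 measured 696, 636 and 533 TPM in submerged ein3eil1 leaves, against 1.38, 1.03 and 0.82 TPM in air. Wild-type UGT74E2 measured 0.48, 0.69 and 0.9 TPM under submergence, against 0.51, 0.41 and 0.29 TPM in air. The UGT74E2 difference of response was 7.97 on the log2 scale (SE 0.21, adjusted p = 7.87e-10). This glucosyltransferase of an auxin precursor rose in ein3eil1 alone and was low in the 9 other libraries.

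SOT12 measured 1973, 1502 and 1526 TPM in submerged ein3eil1 leaves, against 18.1, 18.1 and 19.5 TPM in air. Wild-type SOT12 measured 23.6, 27.8 and 24.3 TPM under submergence, against 28.9, 33.6 and 33.9 TPM in air. The SOT12 difference of response was 6.74 on the log2 scale (SE 0.17, adjusted p = 7.87e-10). The sulfotransferase gene SOT12 rose in ein3eil1 and fell slightly in wild type. The NAC factor genes NAC13 and NAC053 were reversed, with log2 responses of 2.87 in ein3eil1 and -1.07 in wild type for NAC13 and 1.89 in ein3eil1 and -1.0 in wild type for NAC053, while NAC017, which is controlled by release from a membrane, had a difference of -0.05 (95% interval -0.41 to 0.31, adjusted p = 0.827). BCS1, a mitochondrial AAA-type protein, had 3.78 (adjusted p = 1.12e-06), AT2G21640 had 4.79 (adjusted p = 3.44e-07), and the glutathione transferases GSTU24 and GSTU25 had 4.23 (adjusted p = 6.85e-06) and 4.52 (adjusted p = 1.76e-06). The alternative NAD(P)H dehydrogenase genes differed through wild type: NDB2 had no called response in ein3eil1, at 0.26, and fell in wild type, at -3.66 on the log2 scale, and NDA1 and NDA2 had differences of 2.03 and 1.26.

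**Figure D3:**
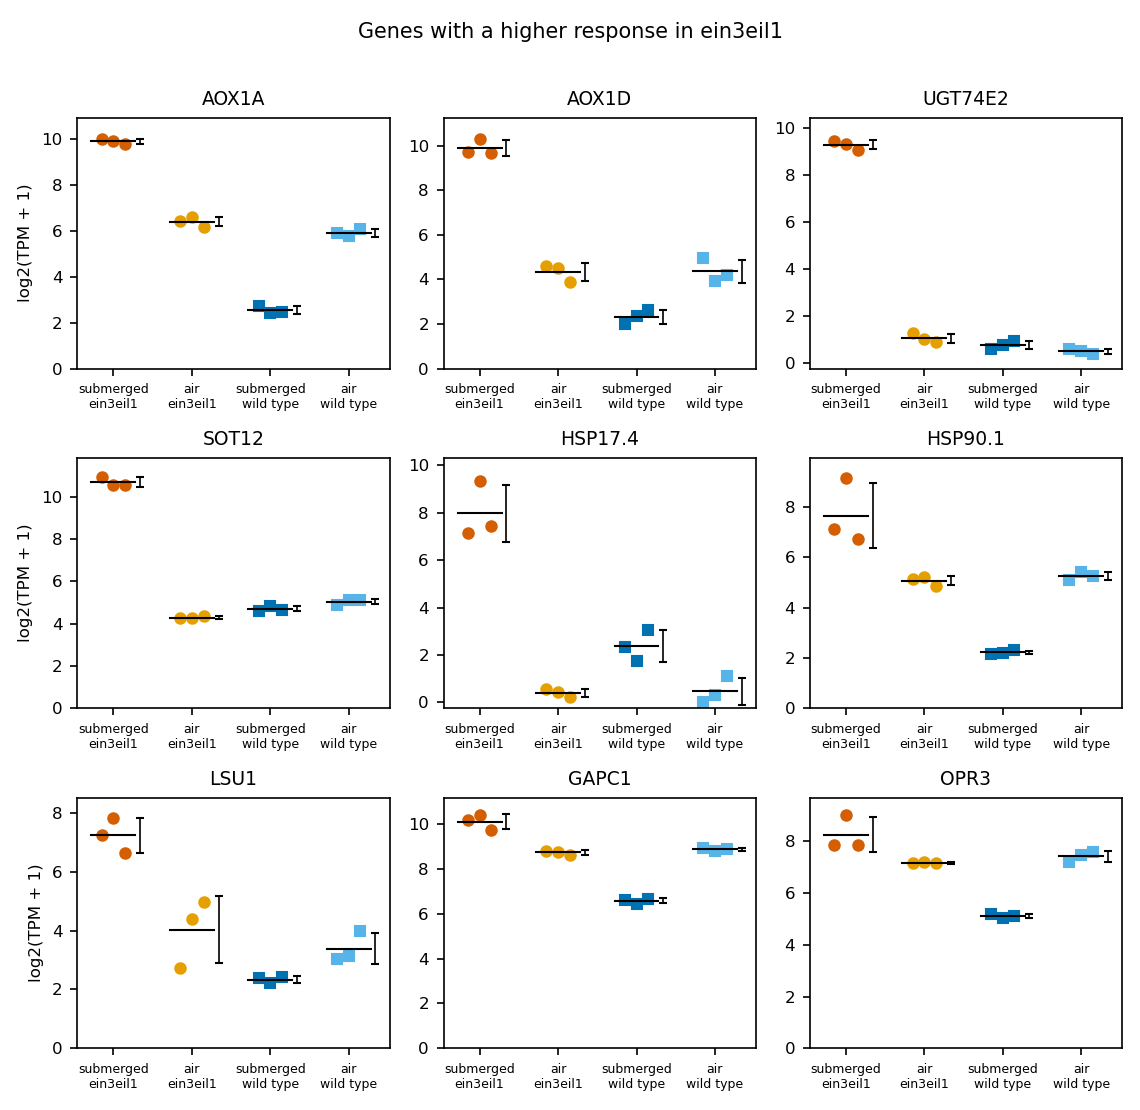
Genes with a higher difference of response: log2(TPM + 1) in 3 libraries (points) per group, with the mean (line) and SD (error bar), ein3eil1 left of wild type and submerged left of air in each panel. AOX1A, AOX1D, HSP90.1, LSU1, GAPC1 and OPR3 were highest in submerged ein3eil1 and lowest in submerged wild type, and UGT74E2, SOT12 and HSP17.4 stood out in submerged ein3eil1 alone.

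Heat shock genes rose in ein3eil1. Of 32 heat shock factors and chaperones 30 were tested, and all 30 rose in ein3eil1, whereas 8 rose and 11 fell in wild type. The difference was called higher in 28 and lower in none (93.3% higher, beside 15.4% of all genes), with a median difference per gene of 4.55. The median log2 responses were 2.93 in ein3eil1 and -0.28 in wild type. Leaving out single libraries gave 28 of 30, except without a submerged ein3eil1 library, where 26 of 28 tested genes were called higher. HSP21 and AT1G52560 reached 1 TPM only in submerged ein3eil1. Of the 28, 11 were reversed, 11 gained and 6 enhanced. Their summed level was 2728 to 8167 TPM in submerged ein3eil1 leaves and 359 to 399.5 TPM in ein3eil1 leaves in air, against 247 to 254 TPM and 399 to 504 TPM in wild type; replicate 2 was the highest submerged ein3eil1 library.

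Small heat shock proteins, which keep unfolding proteins from aggregating, were among the members with large differences. HSP17.4 measured 140.3, 652 and 172 TPM in submerged ein3eil1 leaves, against 0.5, 0.34 and 0.18 TPM in air. Wild-type HSP17.4 measured 4, 2.31 and 7.31 TPM under submergence, against 0, 0.24 and 1.15 TPM in air. The HSP17.4 difference of response was 5.66 on the log2 scale (SE 0.77, adjusted p = 0.000293). Both lines rose, and the submerged libraries of the lines were far apart.

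AT5G51440 measured 254, 564 and 227 TPM in submerged ein3eil1 leaves, against 4.31, 6.04 and 4.03 TPM in air. Wild-type AT5G51440 measured 4.34, 5.29 and 5.63 TPM under submergence, against 7.16, 7.74 and 11.9 TPM in air. The AT5G51440 difference of response was 6.49 on the log2 scale (SE 0.43, adjusted p = 1.88e-06). This small heat shock protein gene rose in ein3eil1, while its wild-type response was not called. HSP17.6II and HSP23.6-MITO rose in both lines and further in ein3eil1, with differences of 5.51 (SE 0.50, adjusted p = 1.5e-05) and 5.27 (SE 0.56, adjusted p = 4.4e-05), and HSP18.2 rose in ein3eil1 alone, with 4.93 (adjusted p = 0.000103).

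HSP90.1 measured 138, 559 and 104 TPM in submerged ein3eil1 leaves, against 33.8, 36.2 and 28.1 TPM in air. Wild-type HSP90.1 measured 3.48, 3.58 and 3.95 TPM under submergence, against 33.4, 41.3 and 36.8 TPM in air. The HSP90.1 difference of response was 5.61 on the log2 scale (SE 0.69, adjusted p = 0.000194). HSP90.1, a heat-inducible chaperone of signalling proteins, went up in ein3eil1 and down in wild type without overlap. HSP70 had log2 responses of 1.52 in ein3eil1 and -3.09 in wild type, and the disaggregase HSP101 of 2.73 in ein3eil1 and -1.21 in wild type.

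Among the regulators, the factor gene HSFA2 had a log2 response of 3.33 in ein3eil1 and -1.68 in wild type, a difference of 5.01 (adjusted p = 4.4e-05). The coactivator MBF1C had 4.60 (adjusted p = 2.88e-05), DREB2A 2.40 (adjusted p = 0.000199) and HSF A4A 2.07 (SE 0.18, adjusted p = 6.8e-06). HSFA3 and HSFA7A rose in both lines and were not called, with 0.04 (95% interval -0.43 to 0.52, adjusted p = 0.893) for HSFA3 and 0.60 (95% interval 0.00 to 1.20, adjusted p = 0.0992) for HSFA7A.

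Sulfur-deficiency genes, which rise when sulfate or glutathione runs short, mostly fell in wild type and went both ways in ein3eil1. Of 16 listed 14 were tested, and 10 had a higher and none a lower called difference (71.4% higher, beside 15.4% of all genes). The median log2 response was 0.23 in ein3eil1 and -1.49 in wild type. In ein3eil1 6 rose and 5 fell, and in wild type 1 rose and 11 fell. APR1 measured 127, 131 and 97.3 TPM in submerged ein3eil1 leaves, against 122, 134 and 106 TPM in air. Wild-type APR1 measured 14.9, 15.9 and 14.5 TPM under submergence, against 87.8, 81.4 and 90.3 TPM in air. The APR1 difference of response was 2.41 on the log2 scale (SE 0.17, adjusted p = 1.86e-06). APR1, which reduces activated sulfate, overlapped between conditions in ein3eil1 and fell in wild type.

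LSU1 measured 150.5, 226 and 98.3 TPM in submerged ein3eil1 leaves, against 5.71, 20.1 and 30.2 TPM in air. Wild-type LSU1 measured 4.19, 3.61 and 4.35 TPM under submergence, against 7.19, 7.73 and 15 TPM in air. The LSU1 difference of response was 4.25 on the log2 scale (SE 0.74, adjusted p = 0.00143). LSU1, a small protein of the sulfur response, rose in ein3eil1, and in wild type its fall was not called. LSU3 had a difference of 3.47 (adjusted p = 0.000263), SHM7 one of 3.21 (SE 0.25, adjusted p = 3.47e-06), APR3 one of 3.13 (adjusted p = 5.33e-05), and the sulfate transporter gene SULTR4;1 one of 1.44 (adjusted p = 0.00165). SULTR1;2, the root uptake transporter, rose in both lines with an uncalled difference of -0.58 (95% interval -1.12 to -0.04, adjusted p = 0.0796).

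Immune and jasmonate genes mostly fell in wild type and rose, or fell less, in ein3eil1. Of 31, all tested, 19 had a higher and 1 a lower called difference (61.3% and 3.23%, beside 15.4% and 26.4% of all genes). In ein3eil1 16 rose and 6 fell, and in wild type 5 rose and 17 fell. The median log2 response was 0.84 in ein3eil1 and -1.05 in wild type. With submerged wild type averaged, 14 and none were called.

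OPR3 measured 231, 520.4 and 232 TPM in submerged ein3eil1 leaves, against 141, 146 and 142 TPM in air. Wild-type OPR3 measured 35.1, 32.1 and 33.9 TPM under submergence, against 145, 175 and 193 TPM in air. The OPR3 difference of response was 3.38 on the log2 scale (SE 0.36, adjusted p = 4.04e-05). OPR3 acts in jasmonate synthesis, and its submerged libraries lay above air in ein3eil1 and below air in wild type. The upstream enzymes fell in both lines but less in ein3eil1: LOX2 had log2 responses of -2.54 in ein3eil1 and -5.38 in wild type and AOS of -0.99 in ein3eil1 and -3.74 in wild type. The jasmonate repressors JAZ1, JAZ5, JAZ8 and JAZ10 had differences of 2.05, 3.56, 2.70 and 2.14.

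PAD3 measured 258, 264 and 253 TPM in submerged ein3eil1 leaves, against 93.4, 140.5 and 114 TPM in air. Wild-type PAD3 measured 45.2, 50.7 and 49.8 TPM under submergence, against 114, 116 and 129 TPM in air. The PAD3 difference of response was 2.46 on the log2 scale (SE 0.18, adjusted p = 1.98e-06). PAD3 makes camalexin, the main antimicrobial indole of Arabidopsis, and was reversed without overlap; CYP71A12 of the same indole pathway had 3.95 (adjusted p = 0.00151). WRKY40 rose in ein3eil1 alone with 2.59 (adjusted p = 0.000414), WRKY46 was reversed with 2.25 (adjusted p = 0.000944), and WRKY53 was the one lower gene with -0.81 (adjusted p = 0.0124). Salicylic acid markers were mixed. PR1 had -0.14 (95% interval -0.78 to 0.50, adjusted p = 0.73) and PR5 0.61 (95% interval -0.08 to 1.31, adjusted p = 0.144), neither called. BGL2 (PR2) fell in wild type and had a called higher difference, of 2.21 (adjusted p = 0.00887), the direction of EDS16.

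Glycolysis genes differed mostly by isoform. Of 17, all tested, 8 were called higher and 2 lower (47.1% and 11.8%, beside 15.4% and 26.4% of all genes), and 6 were reversed. The median log2 response was 0.19 in ein3eil1 and -0.98 in wild type, where 11 fell. GAPC1 measured 1161, 1338 and 848 TPM in submerged ein3eil1 leaves, against 446, 430.2 and 392 TPM in air. Wild-type GAPC1 measured 96.4, 85.6 and 99.2 TPM under submergence, against 485, 437 and 469 TPM in air. The GAPC1 difference of response was 3.67 on the log2 scale (SE 0.21, adjusted p = 2.98e-07). GAPC1, a cytosolic glyceraldehyde 3-phosphate dehydrogenase, went up in ein3eil1 and down in wild type, while its isoform GAPC2 had 0.00 (95% interval -0.37 to 0.37, adjusted p = 0.994).

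FBA8 measured 419, 437 and 307 TPM in submerged ein3eil1 leaves, against 139, 126 and 139 TPM in air. Wild-type FBA8 measured 50.8, 46.7 and 50.9 TPM under submergence, against 111, 97.7 and 93.5 TPM in air. The FBA8 difference of response was 2.51 on the log2 scale (SE 0.18, adjusted p = 1.86e-06). The cytosolic aldolase gene FBA8 likewise reversed, as did the enolase gene LOS2 with 1.75 (adjusted p = 4.77e-05) and the phosphofructokinase genes PFK3 and PFK7 with 1.80 (adjusted p = 3.75e-05) and 2.97 (adjusted p = 1.73e-05). PFK2 and PFK6 were the 2 lower members, with -1.36 (adjusted p = 0.000292) and -1.04 (adjusted p = 0.00291).

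Cell wall genes of growth went both ways. Of 21 xyloglucan endotransglucosylase/hydrolase (XTH) and expansin genes, all tested, 6 were called higher and 8 lower (28.6% and 38.1%); with submerged wild type averaged, 4 and 3 were. Over all genes 15.4% were higher and 26.4% lower. The 6 higher were XTH genes, and 5 of the 8 lower were expansins. XTR6 measured 1210.4, 1053 and 791 TPM in submerged ein3eil1 leaves, against 7.96, 4.61 and 2.44 TPM in air. Wild-type XTR6 measured 50, 50.5 and 44.9 TPM under submergence, against 3.31, 4.81 and 4.18 TPM in air. The XTR6 difference of response was 4.21 on the log2 scale (SE 0.40, adjusted p = 2.27e-05). XTR6 (XTH23) rose in both lines, with the lines apart under submergence and overlapping in air.

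XTH24 measured 2488, 2226 and 1747 TPM in submerged ein3eil1 leaves, against 279.6, 224 and 144 TPM in air. Wild-type XTH24 measured 397, 394 and 414 TPM under submergence, against 183, 204 and 212 TPM in air. The XTH24 difference of response was 2.34 on the log2 scale (SE 0.29, adjusted p = 8.85e-05). XTH24 gave the same picture at a higher level. XTH18 had log2 responses of 7.86 in ein3eil1 and 3.93 in wild type and TCH4 of 4.91 in ein3eil1 and 4.10 in wild type. Expansins loosen walls in acid-driven growth, and EXPA4 fell in both lines and further in ein3eil1. EXPA4 measured 8.55, 3.36 and 4.8 TPM in submerged ein3eil1 leaves, against 68.6, 52.6 and 64 TPM in air. Wild-type EXPA4 measured 18.4, 19.3 and 18 TPM under submergence, against 32.7, 34.8 and 42.8 TPM in air. The EXPA4 difference of response was -2.38 on the log2 scale (SE 0.32, adjusted p = 0.000176). Its submerged libraries did not overlap between the lines. EXP3 fell in ein3eil1 alone, with -2.17 (adjusted p = 0.000472). EXPA11 rose less in ein3eil1, by 0.83 against 2.54 in wild type, a difference of -1.71 (adjusted p = 0.0031). EXPA10 had -1.04 (adjusted p = 0.0111), and EXPA15, with -1.93 (adjusted p = 0.0489), was near the threshold. EXPA1, the highest expansin here, had 0.22 (95% interval -0.30 to 0.74, adjusted p = 0.49) and was not called.

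Auxin genes with a called difference were mostly lower in ein3eil1, as were 63.0% of all called genes. Of 31 listed 29 were tested, and 11 were called lower and 3 higher (37.9% and 10.3%, beside 26.4% and 15.4% of all genes). IAA30, 1 of the 11, would not have passed the minimum without the submerged wild-type libraries. The median log2 response of the auxin genes was 0.47 in ein3eil1 and 0.78 in wild type. ATAUX2-11 measured 47.6, 40.1 and 35.5 TPM in submerged ein3eil1 leaves, against 43.3, 44.6 and 41.4 TPM in air. Wild-type ATAUX2-11 measured 172, 177 and 176 TPM under submergence, against 40.3, 36.8 and 41.9 TPM in air. The ATAUX2-11 difference of response was -2.20 on the log2 scale (SE 0.15, adjusted p = 1.04e-06). ATAUX2-11 (IAA4), an Aux/IAA repressor and an early auxin gene, rose in wild type alone, and the 2 lines overlapped in air.

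SAUR23 measured 7.13, 5.52 and 7.05 TPM in submerged ein3eil1 leaves, against 4.7, 5.29 and 6.17 TPM in air. Wild-type SAUR23 measured 29.1, 26.1 and 34.6 TPM under submergence, against 5.08, 5.6 and 6.2 TPM in air. The SAUR23 difference of response was -1.97 on the log2 scale (SE 0.20, adjusted p = 2.27e-05). SAUR23, of a family of small auxin-induced growth genes, was lost in the same manner. IAA29 had -1.18 (adjusted p = 0.0136) and IAA2 -0.99 (adjusted p = 0.00462). Other members were not called, SAUR19 at 0.00 (95% interval -0.56 to 0.56, adjusted p = 0.997) and the auxin synthesis genes YUC8 and TAA1 at 0.37 (95% interval -0.34 to 1.09, adjusted p = 0.388) and -0.55 (95% interval -1.12 to 0.01, adjusted p = 0.106). The 3 higher genes were the auxin-conjugating GH3.3 with 3.60 (adjusted p = 0.000137) and BRU6 (GH3.2) with 4.58 (adjusted p = 0.000533), and the repressor gene AXR3 with 1.57 (adjusted p = 5.51e-05).

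Light and shade genes gave 9 lower and 4 higher calls of 31 (29.0% and 12.9%, close to the 26.4% and 15.4% of all genes), and 8 and 2 with submerged wild type averaged. PAR1, a helix-loop-helix protein that restrains shade growth, changed most. PAR1 measured 4.32, 0.56 and 2.02 TPM in submerged ein3eil1 leaves, against 1.52, 0.79 and 1.89 TPM in air. Wild-type PAR1 measured 52.9, 52.5 and 57.7 TPM under submergence, against 3.86, 1.3 and 1.43 TPM in air. The PAR1 difference of response was -3.89 on the log2 scale (SE 0.57, adjusted p = 0.00037). It was high in the 3 submerged wild-type libraries and low in the 9 others. Its relative PAR2 had -1.38 (adjusted p = 0.000299).

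PIF3 measured 4.06, 4.06 and 3.47 TPM in submerged ein3eil1 leaves, against 8.01, 7.44 and 7.03 TPM in air. Wild-type PIF3 measured 11.7, 10.5 and 9.27 TPM under submergence, against 5.49, 4.95 and 4.04 TPM in air. The PIF3 difference of response was -1.78 on the log2 scale (SE 0.18, adjusted p = 2.56e-05). PIF3, a phytochrome-interacting factor, was reversed. PIF4 fell in both lines, with -0.74 (adjusted p = 0.00101), and PIF7 had 0.19 (95% interval -0.20 to 0.58, adjusted p = 0.414), not called. FHY1, which carries phytochrome A into the nucleus, lost its rise as PHYA did, with log2 responses of -0.19 in ein3eil1 and 0.88 in wild type and a difference of -1.07 (adjusted p = 0.00188); its homologue FHL rose in both lines, with -0.15 (95% interval -0.61 to 0.31, adjusted p = 0.606). The receptor gene PHYB had 0.68 (adjusted p = 0.041) and fell less in ein3eil1. HY5, a factor of light-grown development, had -1.89 (adjusted p = 0.0148), and its homologue HYH had 1.52 (SE 0.22, adjusted p = 0.000234), in the opposite direction.

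**Figure D4:**
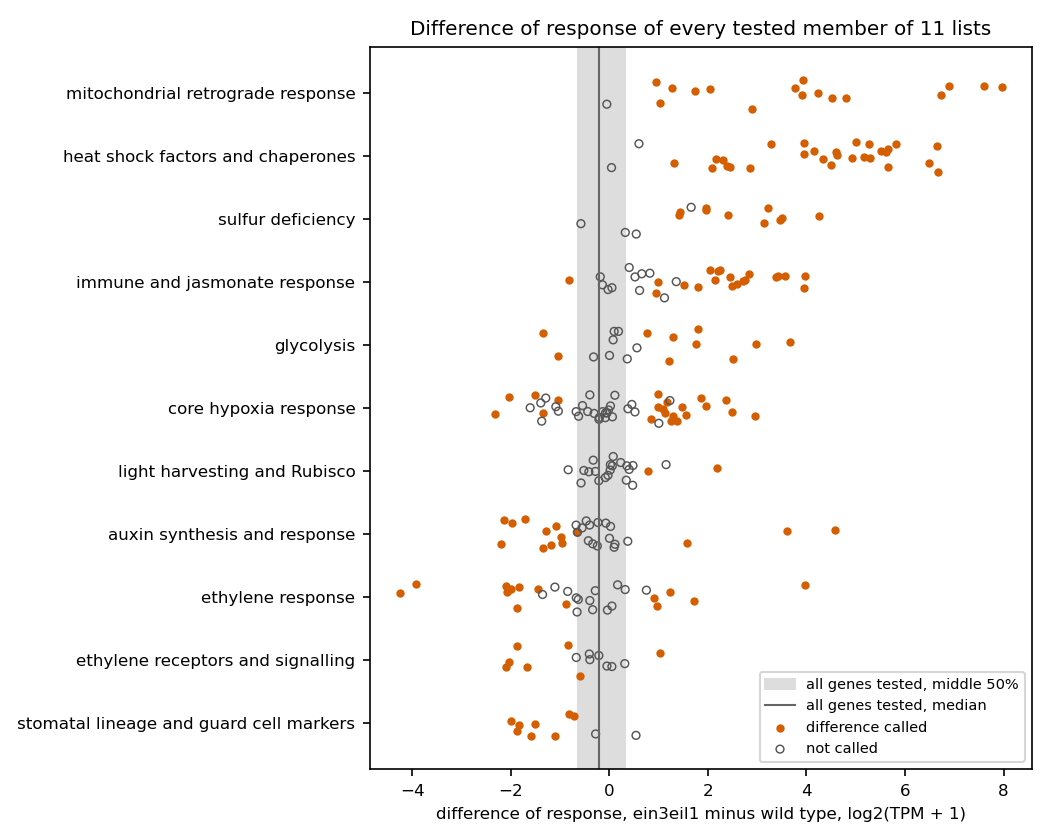
Difference of response (ein3eil1 minus wild type, log2 scale) of every tested member of 11 lists, filled where called. The grey band is the interquartile range and the line the median of all tested genes. Most heat shock, retrograde and sulfur members lie to the right of the band, and most receptor and signalling members lie on its left side or within it.

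Light-harvesting and Rubisco genes fell in both lines with few called differences, 21 of 22 in ein3eil1 and 20 in wild type, with a median log2 response of -1.26 in ein3eil1 and -1.40 in wild type; 2 were called higher (LHCB2.3 with 2.19 (SE 0.48, adjusted p = 0.00462) and LHCB6 with 0.79 (SE 0.27, adjusted p = 0.0348)). Without submerged ein3eil1 replicate 2, which was the lowest of its group in all of them but RBCS1B, 10 were higher and 1 lower with a median difference of 0.33, and without replicate 1, 1 was higher and 3 lower. LHCB6 lost its call in 9 of the 12 fits that left out 1 library. Phenylpropanoid and anthocyanin genes fell steeply in both, with a median log2 response of -3.19 in ein3eil1 and -2.94 in wild type; 2 of 20 were called higher (LDOX and DFR) and 6 lower, or 1 and 4 with submerged wild type averaged and 4 and 3 with a pseudocount of 0.1 TPM, where the median difference was 0.19 in place of -0.18. Among the lower genes were the flavonol regulator MYB111 with -2.07 (SE 0.29, adjusted p = 0.000192) and the chalcone isomerase gene TT5 with -1.22 (SE 0.21, adjusted p = 0.000677). MYB111 started higher in ein3eil1 in air, by 2.12 (adjusted p = 6.79e-05), and the lines did not differ by a call under submergence.

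Starvation genes rose in both lines, 15 of 19 in each, and 4 were called higher and 6 lower; TPS9, 1 of the 4, would not have passed the minimum without the submerged ein3eil1 libraries. EXL2 measured 204, 183 and 164 TPM in submerged ein3eil1 leaves, against 33.3, 25.8 and 26.7 TPM in air. Wild-type EXL2 measured 32, 32.9 and 32.1 TPM under submergence, against 34.8, 45.1 and 45.9 TPM in air. The EXL2 difference of response was 3.00 on the log2 scale (SE 0.19, adjusted p = 5.36e-07). EXL2 rose in ein3eil1 and fell in wild type. BCAT-2, of branched-chain amino acid breakdown, moved the other way, with log2 responses of -0.72 in ein3eil1 and 1.34 in wild type and a difference of -2.06 (SE 0.18, adjusted p = 7.85e-06). Clock genes gave 6 higher and 8 lower calls of 24 (25% and 33.3%, beside 15.4% and 26.4% of all genes), of which 9 were reduced responses. The lower count rested on single libraries: it was 5 without ein3eil1 replicate 1 in air, submerged ein3eil1 replicate 3, or submerged wild-type replicate 1 or 3, and 2 with submerged wild type averaged. The morning gene CCA1 fell less in ein3eil1, with 1.41 (SE 0.15, adjusted p = 3.95e-05), and AT3G54500 (LNK2) had 1.46 (SE 0.15, adjusted p = 2.61e-05).

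Of 16 tested abscisic acid genes, 3 were called higher and 2 lower. The 2 were phosphatase genes of the pathway, ABI1 with -0.97 (SE 0.15, adjusted p = 0.000428) and HAI2 with -2.07 (SE 0.32, adjusted p = 0.00042); HAI2 reached 1 TPM in no libraries but those of ein3eil1 in air, so that its call rests on the group that let it pass, and it was higher there than in wild type by 2.59 (adjusted p = 4.39e-05). The higher count was 1 without wild-type replicate 1 in air, without submerged wild-type replicate 1 or 2, and with submerged wild type averaged. Of 14 tested gibberellin genes, 2 were called higher and 4 lower, and 1 and 2 with submerged wild type averaged. Leaving out 1 of 6 libraries (replicates 2 and 3 of ein3eil1 in air, wild type in air or submerged wild type) made the higher count 1, and leaving out wild-type replicate 1 in air made it 3. The deactivating oxidase gene GA2OX2 rose in ein3eil1 alone, with 2.03 (SE 0.19, adjusted p = 1.24e-05), and the receptor gene GID1C was reversed, with -0.99 (SE 0.14, adjusted p = 0.000207). Of 19 aquaporin genes, 3 were called higher and 7 lower (4 with submerged wild type averaged); RD28 (PIP2;3) had 2.49 (SE 0.34, adjusted p = 0.000209) and the tonoplast gene DELTA-TIP -2.40 (adjusted p = 0.00105).

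**Figure D5:**
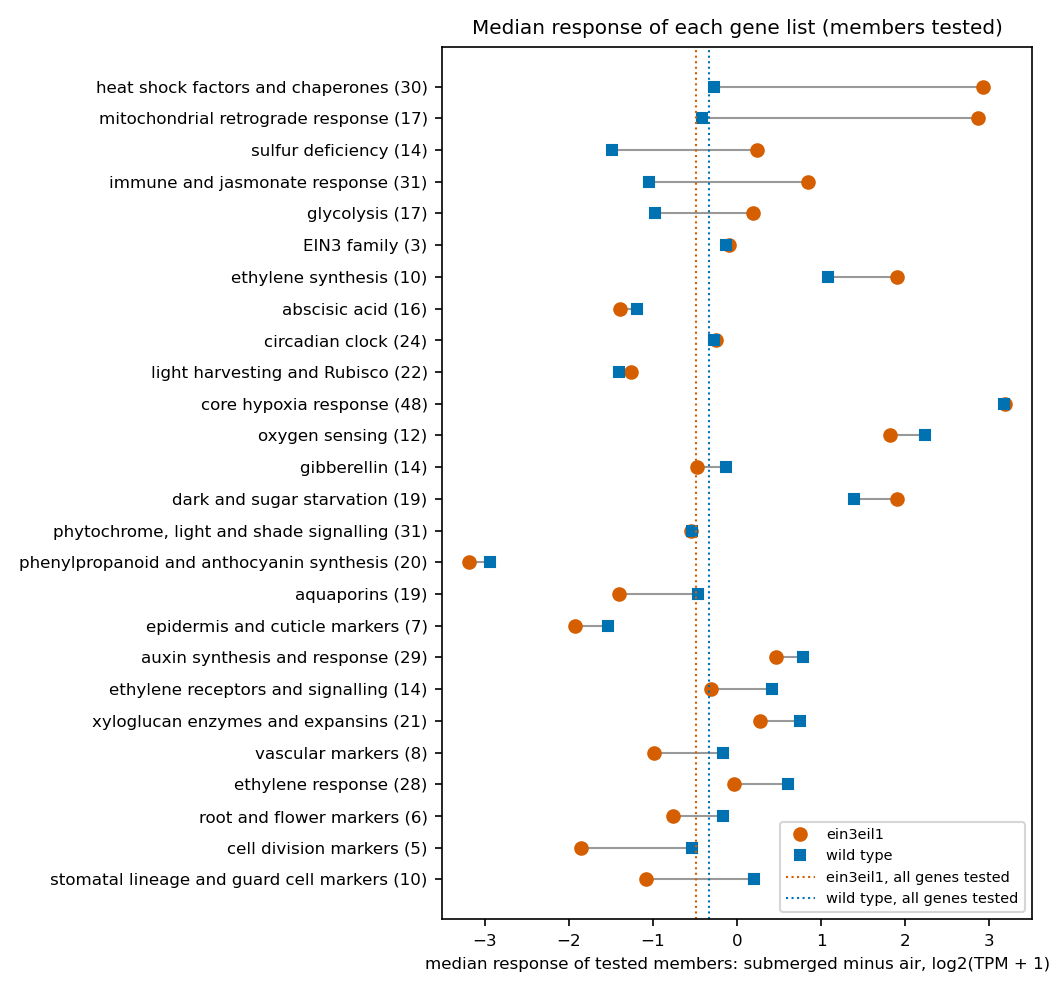
Median log2 response to submergence of each gene list in ein3eil1 (circles) and wild type (squares), with the number of tested members in brackets and dotted lines at the medians of all tested genes (-0.49 in ein3eil1 and -0.33 in wild type). The lines are furthest apart for the retrograde and heat shock lists, and close for core hypoxia, light harvesting and phenylpropanoid genes.

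Markers of cell types within the leaf, and of other organs, were read the same way. Stomatal lineage and guard cell markers gave 8 lower and no higher calls of 10 (80.0% lower, beside 26.4% of all genes), and 5 lower with submerged wild type averaged. Their summed level was 66.4 to 72.5 TPM in submerged ein3eil1 leaves and 118 to 140.0 TPM in ein3eil1 leaves in air, against 79.5 to 84.2 TPM and 78.4 to 98.4 TPM in wild type. EPF1 measured 0.53, 0.43 and 1.25 TPM in submerged ein3eil1 leaves, against 2.8, 4.28 and 3.05 TPM in air. Wild-type EPF1 measured 4.09, 2.59 and 2.87 TPM under submergence, against 2.55, 1.34 and 2.12 TPM in air. The EPF1 difference of response was -1.83 on the log2 scale (SE 0.33, adjusted p = 0.000958). EPF1, a peptide that spaces stomata, was low throughout; FMA, a factor of guard cell fate, had -0.82 (SE 0.16, adjusted p = 0.00168), and the guard cell channel gene KAT1 had 0.54 (95% interval 0.07 to 1.01, adjusted p = 0.0625), not called. MUTE and BASL would not have passed the minimum without the ein3eil1 libraries in air.

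Cell division markers gave 1 lower call of 5, CDKB2;1 with -1.50 (SE 0.45, adjusted p = 0.0188), and 4 lower without ein3eil1 replicate 2 in air or wild-type replicate 1 in air; none was called with submerged wild type averaged or with all 18 libraries in the fit, and CYCB1;1 and CDKB1;1 would not have passed the minimum without ein3eil1 in air. Their summed level was 6.21 to 14.7 TPM in submerged ein3eil1 leaves and 25.6 to 60.9 TPM in ein3eil1 leaves in air, against 5.71 to 6.96 TPM and 7.71 to 22.8 TPM in wild type. Epidermis markers gave 1 higher call, KCS6 with 0.64 (SE 0.17, adjusted p = 0.0103), and 1 lower, GL2 with -1.35 (SE 0.37, adjusted p = 0.012), of 7 (3 lower without wild-type replicate 1 in air), at summed levels of 160.3 to 208 TPM submerged and 453 to 571 TPM in air in ein3eil1, against 131 to 134 TPM submerged and 479.5 to 551 TPM in air in wild type. Vascular markers gave 1 higher call, SUC2 with 0.70 (SE 0.25, adjusted p = 0.0399), and 2 lower, IRX1 with -0.96 (SE 0.28, adjusted p = 0.0158) and IRX3 with -0.77 (adjusted p = 0.0468), of 8, and none with submerged wild type averaged. IRX1 and IRX3 would not have passed the minimum without the ein3eil1 libraries in air, where they were highest, so both lower calls rest on the group that let them pass. They summed to 85.0 to 108 TPM submerged and 173 to 269 TPM in air in ein3eil1, against 45.6 to 49.2 TPM submerged and 74.5 to 109 TPM in air in wild type. SUC2 lost its call in 9 of the 12 fits that left out 1 library.

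Of 11 root and flower markers, 6 floral genes were tested and none was called in the difference, while WOX5, RHD6, SHV2, PRP3 and EXPA7 did not reach the minimum. The floral genes were uneven among the ein3eil1 libraries: AP1 measured 12.1, 0.21 and 4.3 TPM submerged and 4.5, 0 and 15.1 TPM in air, against 0.24, 0.17 and 0.4 TPM and 2.85, 0 and 0 TPM in wild type. The list summed to 6.87 to 53.0 TPM in submerged ein3eil1 leaves and 4.5 to 95.5 TPM in ein3eil1 leaves in air, against 6.31 to 7.61 TPM and 2.46 to 9.77 TPM in wild type. The part of these markers in the results above was not tested.

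The largest members of each class, among named nuclear protein-coding genes averaging at least 5 TPM in some group, added genes outside these lists. Lost falls were led by TAT3, a tyrosine aminotransferase gene of the wound response, with 5.42 (SE 0.85, adjusted p = 0.000885), by the cytosolic fumarase gene FUM2 with 4.44 (SE 0.23, adjusted p = 1.47e-07), and by GSTU5 with 4.28 (SE 0.39, adjusted p = 1.64e-05). FUM2 measured 38.2, 29.4 and 40.7 TPM in submerged ein3eil1 leaves, against 38.3, 38.1 and 31.8 TPM in air. Wild-type FUM2 measured 5.65, 6.24 and 6.09 TPM under submergence, against 192, 125 and 146 TPM in air. The FUM2 difference of response was 4.44 on the log2 scale (SE 0.23, adjusted p = 1.47e-07). In ein3eil1 the conditions overlapped, below wild type in air and above submerged wild type. Lost rises were led by PAR1, by the threonine aldolase gene THA1 with -3.41 (SE 0.60, adjusted p = 0.00129), and by GATA4 with -3.20 (SE 0.45, adjusted p = 0.0003).

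Reduced falls were largest in FAMT, a methyltransferase gene, with 4.70 (SE 0.39, adjusted p = 8.58e-06), in the arginase gene ARGAH2 with 4.21 (SE 0.32, adjusted p = 3.47e-06), and in the lectin gene JAL23 with 3.74 (SE 0.57, adjusted p = 0.00059). ARGAH2 measured 155, 78.8 and 92.3 TPM in submerged ein3eil1 leaves and 227, 225 and 242 TPM in air, against 15.6, 15 and 15.7 TPM and 579, 573 and 911 TPM in wild type. Reduced rises were largest in ORS1, ARGOS and P1R3, the last with -3.49 (SE 0.43, adjusted p = 9.94e-05).

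Reversed responses that rose in ein3eil1 were led by ATL6, a ubiquitin ligase gene, AOX1D and AOX1A. ATL6 measured 80, 97.6 and 67.2 TPM in submerged ein3eil1 leaves and 0, 0.94 and 17.8 TPM in air, whereas it was listed at 0 in all submerged wild-type libraries and at 8.53, 16.4 and 15.5 TPM in air; the fitted difference was 8.43 (SE 1.23, adjusted p = 0.000617). Those that fell in ein3eil1 were led by RR16, CXE5 and ERF9. RR16 measured 5.43, 0.69 and 3.93 TPM in submerged ein3eil1 leaves, against 7.71, 8.96 and 10.7 TPM in air. Wild-type RR16 measured 134, 133 and 144 TPM under submergence, against 29.7, 30.4 and 31.8 TPM in air. The RR16 difference of response was -3.54 on the log2 scale (SE 0.54, adjusted p = 0.000514). RR16, a response regulator of cytokinin signalling, was lower in ein3eil1 than in wild type in both conditions. CXE5, a carboxylesterase gene, had -3.53 (SE 0.30, adjusted p = 7.11e-06) and ERF9 -3.23 (SE 0.28, adjusted p = 6.59e-06).

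Gained rises were led by UGT74E2, GSTU9 and CYP81D11. GSTU9 measured 1367, 1771 and 1869 TPM in submerged ein3eil1 leaves, against 11.5, 5.98 and 5.98 TPM in air. Wild-type GSTU9 measured 9.16, 9 and 7.48 TPM under submergence, against 2.84, 8 and 5.93 TPM in air. The GSTU9 difference of response was 6.99 on the log2 scale (SE 0.43, adjusted p = 1.09e-06). GSTU9, a glutathione transferase, was high in every submerged ein3eil1 library and low in the 9 others, and CYP81D11, a detoxification cytochrome P450, had 6.32 (SE 0.51, adjusted p = 6.27e-06). Gained falls were led by the germin gene GER3 with -4.30 (SE 0.86, adjusted p = 0.00343), ADS4 with -3.72 (SE 0.68, adjusted p = 0.00141) and OEP16-1, of the plastid envelope, with -2.76 (SE 0.24, adjusted p = 7.18e-06). These 3 stood higher in ein3eil1 than in wild type in air, by log2 2.21 (adjusted p = 0.0138), 2.62 (adjusted p = 0.00159) and 1.57 (adjusted p = 0.000122).

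Enhanced rises were led by the small heat shock genes HSP17.4, HSP17.6II and HSP23.6-MITO. Enhanced falls were led by EXPA4, the wax ester synthase gene WSD1 and ENODL19. ENODL19 measured 19.4, 19.7 and 19.4 TPM in submerged ein3eil1 leaves, against 140.2, 128 and 114 TPM in air. Wild-type ENODL19 measured 107, 105 and 103 TPM under submergence, against 106, 146 and 159.5 TPM in air. The ENODL19 difference of response was -2.29 on the log2 scale (SE 0.19, adjusted p = 5.16e-06). The lines overlapped in air and were apart under submergence. WSD1 measured 0.53, 0.16 and 0.29 TPM submerged and 12.8, 9.41 and 22.8 TPM in air in ein3eil1. In wild type it was listed at 0 in all submerged libraries and at 2.58, 0.21 and 1.55 TPM in air. Its fitted difference was -2.36 (SE 0.52, adjusted p = 0.00372), and the call ended with a pseudocount of 0.1 TPM (adjusted p = 0.194). WSD1 would not have passed the minimum without the ein3eil1 libraries in air, where it was highest. Its call thus rests on the group that let it pass.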

How the data were processed

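Per the labels' protocols, leaf mRNA was enriched on oligo(dT) and reverse transcribed from random primers. Strandedness is not stated there, and signal from genes that overlap in antisense cannot be told apart. The table was deposited, with 1 TPM value per gene and library, made by the authors; no header names the unit, which was inferred from its decimals and from sums of 996194 to 998620 in the 12 libraries. The tools fastp, cutadapt, HISAT2 and DESeq2 and the build TAIR10 are named in the submitters' processing notes, without versions or roles. Because the table holds TPM and no counts, the planned count test was not used, the depth is unknown and counting intervals are left out. The reference in hand (TAIR10.1) served for names and biotypes alone; 285 listed genes had no match, and 22 names stored as dates were read from it. Values identical to another gene's were found in 24 tested genes, and reads of close paralogs (small heat shock, SAUR, XTH and glutathione transferase genes) may have been split between them.

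Genes of at least 1 TPM in at least 3 of the 12 wild-type and ein3eil1 libraries were tested (19806, of which 18700 are protein-coding). Just inside this minimum, 626 genes reached 1 TPM in exactly 3 libraries (median of their mean levels 0.757 TPM), and just outside it 659 did so in 2 (0.551 TPM). Values were analysed as log2(TPM + 1) with limma-trend and robust moderation (limma 3.58.1, R 4.3.3), a mean per group and no block, two-sided, with Benjamini-Hochberg adjustment over all tested genes. The contrast was (submerged ein3eil1 minus air ein3eil1) minus (submerged wild type minus air wild type), and the classes follow the calls of this contrast and of the 2 responses. With 3 libraries against 3, the smallest two-sided p of an exact permutation test is 0.1. The 6 phyA-211 libraries entered only the alternative fit of 18 libraries. The fit was also run on simulated data with the same spread in all groups, which does not bear on the uneven spreads seen here.

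The 26 lists hold 488 distinct loci, of which 459 were tested, and are described by counts and medians. Named genes are EIN3, EIL1, PHYA and ADH1, in each class the 3 largest differences in each direction among called protein-coding nuclear genes that have a symbol and average at least 5 TPM in some group, and in each list the 2 called members of smallest adjusted p; further list members are named to describe the lists and were chosen after their values were seen. The genes, lists and classes were all chosen with earlier results of these data known. Tables and figures were made with Python 3.11.15, pandas 2.3.3 and matplotlib 3.10.9. Some results are not reported here.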

Additional observations from a re-analysis of the deposited data

Results flagged for a closer look

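In these data the 2 lines differed in their answer to the same treatment, by limma's test of the difference itself: 3059 genes had a higher and 5219 a lower response in ein3eil1 than in wild type. In 1050 genes the response was called in both lines with opposite signs. Among those named by the rule, ATL6 (8.43), AOX1D (7.61) and AOX1A (6.90) rose in ein3eil1 and fell in wild type, with differences of response on the log2 scale as given; ATL6 was listed at 0 in all submerged wild-type libraries, so its value depends on the added 1 TPM. RR16 (-3.54), CXE5 (-3.53) and ERF9 (-3.23) fell in ein3eil1 and rose in wild type. Groups of 3 libraries are too small for a test of single outlying libraries.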

How the results depend on the processing

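With submerged wild type averaged to 1 library, a fit of 10 libraries added after seeing the data, 1941 genes were called higher and 2675 lower, with 1017 lost, 607 reduced, 542 reversed and 579 enhanced responses. With all 18 libraries in the fit, 3399 were lower, and 598 were reduced, 651 reversed and 957 enhanced. Sorting the called genes by the size of the responses, with a response under 0.25 of the other counted as lost, made 1959 reversed. Without 1 library at a time, 2683 to 2986 genes were higher and 4231 to 5422 lower. Median centring gave 3414 higher and 4642 lower, and quantile normalization 3292 and 4419. Of 1787 pairs of a named gene and an alternative, 1746 kept the direction and the side of the threshold, 39 lost the call and 2 changed sign, both in ADH1, which was not called: 0.14 with quantile normalization and 0.11 without ein3eil1 replicate 1 in air (range without single libraries -0.98 to 0.11). The calls lost were in 11 genes: EIN3, ORS1, WSD1, ERF71, IRX1, RAP2.2, KCS6, CDKB2;1, LHCB6, SUC2 and GL2. The causes were not tested. With all 18 libraries, the circadian list had 6 higher and 2 lower calls and the oxygen-sensing list 1 higher call; with a filter of 5 TPM, 3 of 5 stomatal markers were lower.

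Same-numbered replicates are not paired in the labels. Of 18 correlations of their deviations 4 exceeded 0.1 (-0.0874 to 0.203), which cannot show whether they shared plants or handling. With a replicate block 2982 genes were called higher and 5121 lower. No replicate origin or read depth is given, and the submerged wild-type libraries varied less than the others, so p-values rest on uneven spreads. The planned description of promoter motifs was not run, because no promoter sequences of the authors' build were in hand.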
